A study of Mus musculus with 5 samples.

Results

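Tibialis anterior muscle 4 days after cardiotoxin was set against uninjected muscle, in the measure of 217 miRNAs by TaqMan RT-PCR. The day 4 comparison is 1 of the 5 samples of the series, which also covers days 1, 3, 7 and 21, and it holds 4 day 4 and 4 baseline values for each miRNA. All mice were C57BL/6J males aged 4 to 6 months. In the day 4 group, cardiotoxin at 2.5 µM in saline (100 µl) had been injected into the anterior compartment below the knee of both hind limbs, while the baseline group had received no injection, not saline. The injected and uninjected groups therefore differ by the needle and the fluid as well as by the toxin, and these cannot be told apart. RNA came from a portion of the whole muscle with all its cell types, and the labels give 4 mice for each time point. The files do not tie a value to an animal, and the 4 values are treated here as 4 mice. Should all 4 be repeats of the same RNA, the p-values would reflect technical spread only. Should only some be repeats, that spread would be technical in part.

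Cardiotoxin is a snake venom peptide that lyses muscle fibres and spares most satellite cells, the stem cells that lie against the fibre. In the first days inflammatory cells clear the debris, satellite cells divide as myoblasts, and the myoblasts then stop dividing and fuse into new fibres. A miRNA is a short RNA that represses mRNAs carrying a match to its seed, bases 2 to 8 from its 5′ end, so miRNAs with a common seed share many predicted targets. Many miRNAs are cut from a common transcript with their genomic neighbours. In mouse muscle, miR-1 and miR-133a mark the differentiated fibre, while miR-322 and miR-503 come from an X-linked transcript that is switched on as myoblasts leave the cell cycle.

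The mature sequences below carry the results that follow. They are given 5′ to 3′ from RefSeq (GRCm38.p6), with the seed in capitals. In all, 170 of the 217 assays were matched to a RefSeq mature miRNA. The first set shows miR-351 beside miR-125a-5p and miR-125b-5p, which have its seed and did not share its change.
miR-351: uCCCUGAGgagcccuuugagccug
miR-125a-5p: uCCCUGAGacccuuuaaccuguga
miR-125b-5p: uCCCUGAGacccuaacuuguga

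The second set shows miR-503 and miR-322, neighbours on chromosome X, beside the miR-15 and miR-16 sequences that they resemble. The seed of miR-503 ends in a base that sets it apart from the seed common to the other 4.
miR-503: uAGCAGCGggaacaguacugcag
miR-322: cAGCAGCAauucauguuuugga
miR-15a: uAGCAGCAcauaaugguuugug
miR-15b: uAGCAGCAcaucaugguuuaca
miR-16: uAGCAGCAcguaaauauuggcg

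The third set shows members of the miR-30 seed family, with miR-384-5p, which has its seed although it bears another name.
miR-30a: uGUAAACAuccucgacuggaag
miR-30c: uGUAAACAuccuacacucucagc
miR-30e: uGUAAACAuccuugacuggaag
miR-384-5p: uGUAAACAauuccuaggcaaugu

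The last set shows other miRNAs with large increases, whose seeds differ from one another.
miR-433: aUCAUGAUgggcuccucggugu
miR-431: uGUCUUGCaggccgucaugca
miR-31: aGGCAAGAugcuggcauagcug
miR-501-3p: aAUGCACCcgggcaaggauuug
miR-188-5p: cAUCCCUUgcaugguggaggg
miR-298: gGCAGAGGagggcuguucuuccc

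Levels were read as the threshold cycle (Ct), the PCR cycle at which the product crosses a set fluorescence. More RNA gives a lower Ct, and 1 cycle is a doubling at full efficiency. All 217 miRNAs were detected at day 4, meaning that 3 or 4 wells had a Ct under 35, against 213 at baseline. The defining miRNAs of the labelled tissue were present: miR-133a had a mean Ct of 12.9 at day 4 and 9.35 at baseline, far inside the limit. Assays are not calibrated against each other, so no rank among miRNAs is read from Ct. The control RNAs moved by unequal amounts. U6, a spliceosomal RNA, had a mean Ct of 13.2 ± 0.65 at day 4 and 14.8 ± 0.26 at baseline (SD, n = 4 each), and snoRNA135 had 17.8 ± 0.34 and 20.3 ± 0.37. snoRNA202, U87 and Y1 shifted by 0.60, 0.95 and 0.65 cycles towards more RNA at day 4. Changes are therefore given relative to the median of 205 miRNAs measured in every well, and for every miRNA with a value in each well the change relative to U6 is lower by 0.67 on the log2 scale. A miRNA "rose" or "fell" only where limma's test gave an adjusted p under 0.05 in that direction in both scalings. The residual SD per miRNA had a median of 0.26 (log2) in the main scaling and 0.64 relative to U6.

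By this rule 54 of the 213 miRNAs tested rose (25.4%) and 88 fell (41.3%), and 42 others passed in only one of the scalings. Relative to the median miRNA alone 92 were higher (43.2%) and 88 lower (41.3%), and relative to U6 alone 54 were higher (25.4%) and 92 lower (43.2%). The share of higher calls thus depended on the scaling. No miRNA passed in opposite directions in these 2 scalings, but they differ by 0.67 for nearly every miRNA, so U6 was not an independent check. All 88 miRNAs lower relative to the median miRNA stayed lower relative to U6, so the need for both removed only increases. Scaled values of day 4 and baseline did not overlap for 171 of the 213. Change is the common state here, and the counts of each group below have to be read against these shares. Of the calls, 41 increases and 58 decreases passed under all 9 scalings tried.

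**Figure D1:**
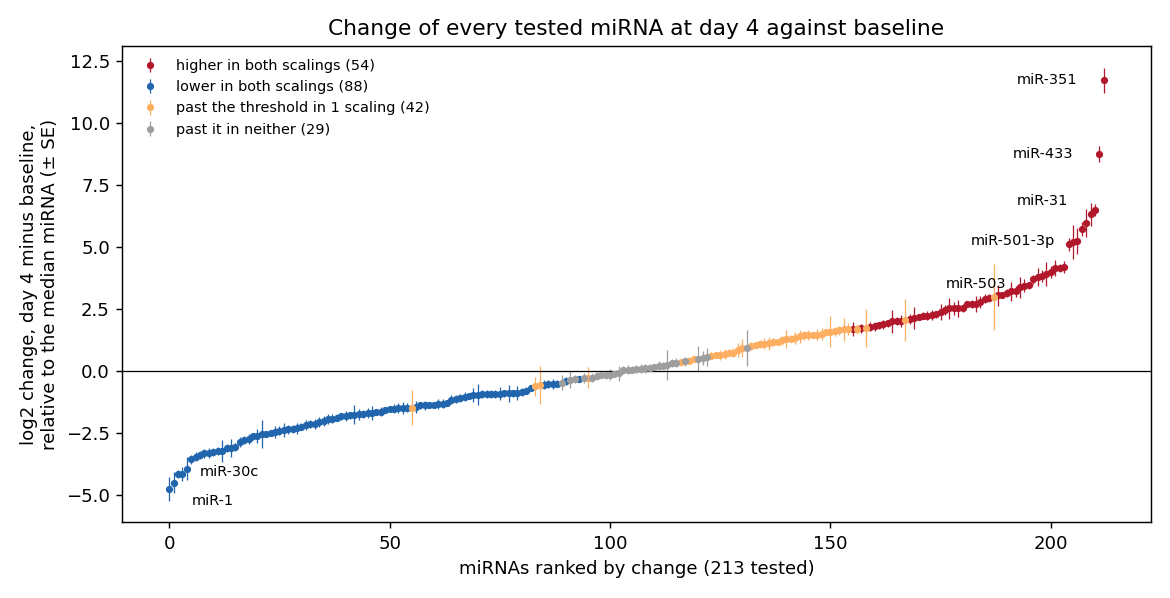
The log2 change (day 4 minus baseline, relative to the median miRNA, with its standard error) of each of the 213 tested miRNAs, ranked, with colour for the call in both scalings. The 54 miRNAs that rose reach much further from 0 than the 88 that fell, with miR-351 at 11.71 at one end and miR-1 at -4.77 at the other.

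The steepest increase of a miRNA tested in both groups was that of miR-351, a member of the X-linked cluster with miR-322, miR-503, miR-542 and miR-450a. These genes lie at chrX:53048206-53054327 on the minus strand (GRCm38.p6). miR-351 had Ct 21.42, 21.51, 21.56 and 21.01 in day 4 muscle, against 32.53, 34.90, 34.96 and 33.71 at baseline. All day 4 wells lay far below all baseline wells in Ct, and the baseline wells were close to the limit of 35. The log2 change was 11.71 ± 0.52 (SE, 4 values per group; adjusted p = 1.12e-14), or 3341-fold, and 11.03 ± 0.53 relative to U6. The fold starts near the limit of detection, so its size rests on baseline wells that measured little RNA.

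miR-503, known in mouse myoblasts to lower the cell cycle phosphatase Cdc25A, also rose. Its Ct was 21.51, 21.02, 21.77 and 21.02 at day 4 and 26.23, 26.09, 25.66 and 25.83 at baseline, with no overlap, and its log2 change was 3.68 ± 0.18 (adjusted p = 3.91e-14). miR-542-3p rose by 2.24 ± 0.22. miR-542-5p, the other arm of that hairpin, had 0.64 ± 0.20 in the main scaling but -0.04 ± 0.40 relative to U6 (adjusted p = 0.94), which is no call. The remaining members passed in neither scaling: miR-450a-5p had 0.37 ± 0.18 and miR-322 had -0.28 ± 0.18. miR-322 had Ct 19.57, 19.91, 19.75 and 19.67 at day 4, against 20.74, 20.41, 20.13 and 20.27 at baseline.

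In sum 3 of the 6 members of this cluster rose and 0 fell, beside 25.4% and 41.3% of all tested miRNAs. The cluster's median log2 change of 1.44 turned to -0.09 with snoRNA135 as normalizer. The median over all 213 miRNAs was 0.06, which the scaling itself holds near 0. Genes that lie within a few kilobases of each other thus ranged from -0.28 to 11.71.

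**Figure D2:**
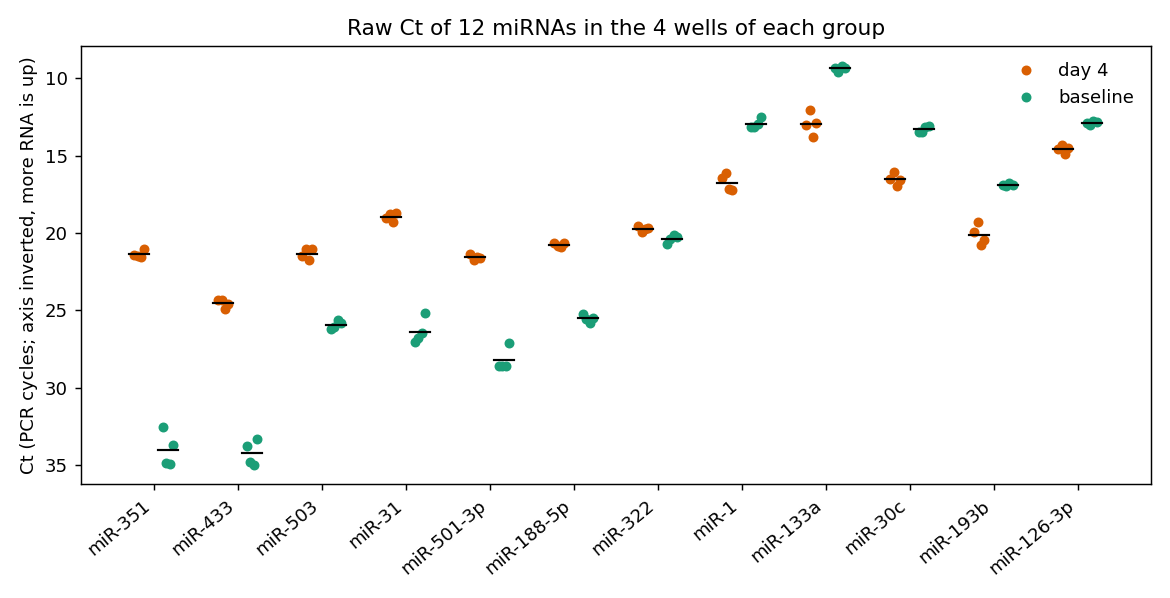
Raw Ct of 12 miRNAs in the 4 wells of day 4 (orange, left of each pair) and baseline (green, right), with black bars at the means and the axis inverted so that more RNA is up. In miR-351, miR-433, miR-503, miR-31, miR-501-3p and miR-188-5p all day 4 wells lie above all baseline wells; in miR-1, miR-133a, miR-30c, miR-193b and miR-126-3p they lie below, and miR-322 moves little.

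The imprinted Dlk1-Dio3 region on chromosome 12 carries one of the largest miRNA groups of the mouse genome, and its miRNAs are expressed from the maternal chromosome. Of its 30 tested miRNAs 17 rose and 2 fell, beside 25.4% and 41.3% of all tested miRNAs. The region's median log2 change of 1.82 stayed above 0 under every scaling tried but was only 0.295 with snoRNA135. miR-433 had the steepest change, with Ct 24.35, 24.33, 24.90 and 24.60 at day 4 and 33.76, 34.83, 34.98 and 33.31 at baseline. Its log2 change was 8.73 ± 0.31 (adjusted p = 1.01e-15), 425-fold, again from baseline wells close to the limit.

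miR-431, which is known in mouse to regulate satellite cells through Pax7, had Ct 22.01, 21.65, 22.86 and 22.00 at day 4 and 27.70, 30.39, 29.36 and 28.69 at baseline. It rose by 5.96 ± 0.55, and its baseline wells spread more widely than its day 4 wells. miR-665 rose by 5.24 ± 0.53 and miR-370 by 5.18 ± 0.68.

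Of the 30, 28 fall into a pair of groups with gaps of under 10 kb inside each. miR-370 (chr12:109618305-109618326), which rose, lies alone between them, and miR-376c, which had 0.13 ± 0.13 and no call, has no position here. In the first, from miR-337-5p to miR-136 (chr12:109585818-109595352, plus strand), 3 of 9 tested members rose and 2 fell. miR-433, miR-431 and miR-665 were the members that rose, while their neighbours miR-337-5p and miR-337-3p had -0.12 ± 0.11 and -0.22 ± 0.17. In the second, from miR-379 to miR-410 (chr12:109709065-109743784), 13 of 19 rose and 0 fell, and all 19 were higher relative to the median miRNA, between 0.99 and 3.90. The first group thus held both the region's steepest increases and its only decreases, those of miR-136 and miR-434-3p. miR-136 was lower under all 9 scalings tried, while miR-434-3p was at -0.58 ± 0.18 and its sign turned to 0.36 in raw Ct. The difference between the groups was not tested.

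**Figure D3:**
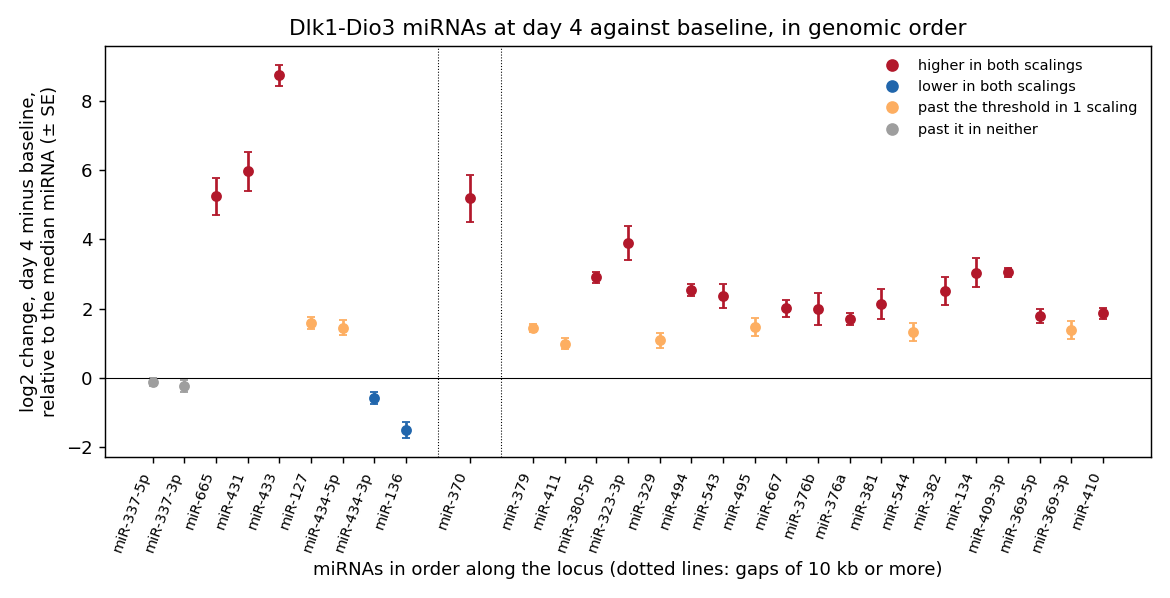
The log2 change (day 4 minus baseline, relative to the median miRNA, with its standard error) of the 29 Dlk1-Dio3 miRNAs with a position here, in genomic order, with dotted lines on either side of miR-370, between the first and second group. The first group spans -1.51 to 8.73 and the second stays between 0.99 and 3.90.

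Another X-linked group lies in an intron of the chloride channel gene Clcn5. It is not one of the lists. It was looked at because members were named for large increases or for standing above both neighbouring days. All 4 members with a known position (chrX:7241270-7248440, minus strand) rose, with a median log2 change of 3.29. Over all tested miRNAs 25.4% rose, but the choice of the group raised its own count. Members without a position here, such as miR-532-5p, are not in the count. miR-501-3p had Ct 21.34, 21.76, 21.56 and 21.60 at day 4 and 28.61, 28.61, 28.59 and 27.12 at baseline, a log2 change of 5.72 ± 0.29. miR-188-5p had Ct 20.67, 20.84, 20.93 and 20.64 at day 4 and 25.24, 25.57, 25.80 and 25.48 at baseline (3.81 ± 0.24). The arms of the miR-532 hairpin rose alike, miR-532-3p by 2.68 ± 0.13 and miR-532-5p by 2.45 ± 0.21. miR-362-3p, chosen after its value was seen as the remaining member of the 4 with a known position, rose by 2.77 ± 0.23. miR-501-3p, miR-188-5p, miR-362-3p and both arms of miR-532 kept their call under all 9 scalings.

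Outside these loci miR-31 had the steepest tested increase. In mouse satellite cells it is known to hold back Myf5 mRNA. Its Ct was 19.03, 18.79, 19.31 and 18.69 at day 4 and 27.05, 26.82, 26.50 and 25.21 at baseline, a log2 change of 6.50 ± 0.24 (adjusted p = 1.01e-15), 90.3-fold. miR-34c, a miRNA of the p53 response, rose by 5.10 ± 0.26, with baseline wells of 30.69, 30.59, 30.32 and 28.54 against day 4 wells between 23.61 and 24.33. miR-335-3p and miR-335-5p, from an intron of the imprinted Mest gene, rose by 4.18 ± 0.23 and 2.51 ± 0.27. miR-675-3p is cut from the H19 RNA, which is known to be induced in regenerating muscle, and rose by 4.13 ± 0.33.

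miR-18a rose by 4.14 ± 0.15 and was the only one of 11 members of miR-17-92 and its paralogous clusters to do so. The miR-17-92 cluster is known to drive proliferation and can be activated by Myc. Relative to the median miRNA 8 of the 11 were higher, among them miR-17 (1.15 ± 0.13), miR-20a (1.29 ± 0.13) and miR-19a (1.62 ± 0.19), but none of those 3 passed relative to U6. The median over the 11 was 1.04 and turned to -0.48 with snoRNA135. In the large cluster inside Sfmbt2, 3 of 6 members rose and 0 fell, beside 25.4% and 41.3% of all tested miRNAs. The cluster's median of 1.96 stayed above 0 under every scaling tried but was only 0.435 with snoRNA135. The members that rose were miR-467c by 3.97 ± 0.25, miR-467d by 3.77 ± 0.35 and miR-467a by 2.26 ± 0.12.

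Another 4 miRNAs met the detection rule at day 4 but not at baseline. Only a lower bound on their increase can be given, with baseline wells over the limit set to 35. The bounds compare group means and carry no error. miR-298 had Ct 22.05, 22.24, 22.47 and 22.37 at day 4, against 39.40, 35.89 and 38.49 and 1 undetermined well at baseline, and was at least 3501-fold higher. Its level was far inside the measured range at day 4 and outside it in every baseline well. miR-680 was at least 50.1-fold higher, with 26.67 to 27.65 at day 4 and 30.37 to 39.01 at baseline, where 2 wells were under the limit. miR-147, known to be induced in mouse macrophages by Toll-like receptor signals, was at least 34.7-fold higher, with 2 baseline wells under the limit. miR-429 of the miR-200 family was at least 25.7-fold higher, with 1 baseline well under the limit. Relative to U6 the bounds were 2195-fold, 31.4-fold, 21.8-fold and 16.1-fold in the same order.

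The miRNAs of the mature fibre were low at day 4. All 5 measured members of the muscle-enriched list fell, with a median log2 change of -3.95, although under quantile normalization miR-133b turned to 0.36 and miR-133a reached only -0.63 (adjusted p = 0.21). miR-1 had Ct 16.47, 16.14, 17.14 and 17.23 at day 4 and 13.12, 13.14, 12.94 and 12.48 at baseline, a log2 change of -4.77 ± 0.47 (adjusted p = 5.40e-09), 27.3-fold lower. miR-133a had 13.00, 12.03, 13.77 and 12.91 at day 4 and 9.33, 9.59, 9.19 and 9.30 at baseline, and fell by 4.52 ± 0.43. The day 4 wells of both miRNAs spread more widely than their baseline wells, and the groups did not overlap.

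miR-499, encoded within the slow myosin gene Myh7b, fell by 3.95 ± 0.47, miR-486, from the ankyrin gene Ank1, by 2.56 ± 0.57, and miR-133b by 1.71 ± 0.29. In whole muscle, fewer cells of a type and less RNA per cell cannot be told apart, which holds for each loss and gain given here.

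The miR-30 seed family fell as a whole, 6 of 6 members under every scaling tried, with a median log2 change of -3.32 and a range from -4.17 to -2.55. In mouse muscle the family is known to repress Tnrc6a, a component of the miRNA silencing complex. miR-30c had Ct 16.51, 16.07, 16.96 and 16.56 at day 4, against 13.49, 13.48, 13.14 and 13.08 at baseline, a log2 change of -4.17 ± 0.17 (adjusted p = 3.78e-15), 18.0-fold lower. miR-30e fell by 3.58 ± 0.18, miR-30b by 3.40 ± 0.15, miR-30a by 3.25 ± 0.16 and miR-30d by 2.55 ± 0.14. miR-384-5p, which lies apart on chromosome X and has the same seed with a different 3′ part, fell by 2.87 ± 0.21. Its Ct was 26.23, 26.09, 26.43 and 25.58 at day 4 and 24.13, 24.31, 24.16 and 24.04 at baseline.

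Several miRNAs of other roles fell as far. miR-193b had Ct 19.97, 19.27, 20.77 and 20.44 at day 4 and 16.91, 16.95, 16.80 and 16.88 at baseline, and fell by 4.17 ± 0.27. miR-491 fell by 3.47 ± 0.17, miR-345-5p by 3.34 ± 0.17 and miR-135a by 3.32 ± 0.21. miR-29c fell by 3.24 ± 0.43, and its day 4 wells (20.88, 19.30, 21.73 and 19.90) spread more widely than its baseline wells (18.36, 18.23, 18.45 and 17.59). Of its family, which represses collagen mRNAs, miR-29a fell by 1.51 ± 0.19, with a value of 0.25 under quantile normalization, while miR-29b had 0.04 ± 0.19 and no call (median of the 3 members -1.51).

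The lists of miRNAs that mark other cell types of muscle did not each move one way. The endothelial list holds the arms of the miR-126 hairpin, from the Egfl7 gene, and both fell under every scaling tried, miR-126-3p by 2.65 ± 0.13 and miR-126-5p by 2.76 ± 0.20 (median -2.70). miR-126-3p had Ct 14.54, 14.32, 14.88 and 14.53 at day 4 and 12.88, 12.99, 12.78 and 12.79 at baseline. Of 6 fibroblast and smooth muscle miRNAs 1 rose and 2 fell (median 0.70, and -0.83 with snoRNA135). Over all tested miRNAs 25.4% rose and 41.3% fell. miR-145 and miR-143, which mark smooth muscle of the vessel wall, fell by 3.30 ± 0.16 and 2.42 ± 0.17, while miR-21, high in fibroblasts and macrophages, rose by 2.21 ± 0.18. miR-199a-5p had 2.03 ± 0.84, and its call was lost relative to U6 (adjusted p = 0.094) and without the second baseline value (1.44, adjusted p = 0.13).

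Among 9 tested myeloid and lymphoid miRNAs 3 rose and 4 fell, beside 25.4% and 41.3% of all tested miRNAs. The list's median of 0.33 turned to -0.35 relative to U6, to -1.20 with snoRNA135 and to -0.07 with the mean of 3 control RNAs. The myeloid miR-223 had Ct 15.58, 15.64, 15.84 and 15.51 at day 4 and 18.69, 18.78, 18.74 and 18.72 at baseline, and rose by 2.15 ± 0.12. Both arms of the haematopoietic miR-142 hairpin rose, miR-142-3p by 3.19 ± 0.23 and miR-142-5p by 3.13 ± 0.15. miR-150, which marks resting lymphocytes, fell by 1.84 ± 0.21. The other members that fell were miR-155, miR-146b and miR-181a. miR-150 and miR-155 kept their call under all 9 scalings, and miR-146b and miR-181a did not. miR-451, the measured red cell miRNA, had -0.92 ± 0.36, and its call was lost without the third baseline value (-0.60, adjusted p = 0.12) and without the third day 4 value (-0.84, adjusted p = 0.053). Its day 4 Ct of 20.08, 20.16, 20.62 and 20.09 lay within the span of its baseline Ct of 21.53, 20.27, 19.18 and 20.08, so the raw groups overlapped.

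Of 12 satellite cell and myoblast miRNAs 1 rose and 7 fell, beside 25.4% and 41.3% of all tested miRNAs. The list's median of -0.67 turned to 0.27 in raw Ct. miR-31 was the one that rose. miR-489, which in mouse keeps satellite cells quiescent, fell by 3.12 ± 0.37, with Ct 28.42, 28.77, 28.49 and 28.56 at day 4 and 26.11, 26.67, 26.19 and 26.55 at baseline. miR-26a, which promotes differentiation of mouse myoblasts, fell by 2.80 ± 0.16. The list mixes miRNAs of quiescent, dividing and differentiating cells, and its members moved in both directions.

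Of 5 tested epithelial miRNAs 3 rose and 1 fell, beside 25.4% and 41.3% of all tested miRNAs. The list's median of 2.51 came down to 0.16 under quantile normalization. The member that fell was miR-203, which did not keep its call under all 9 scalings. miR-200a rose by 6.30 ± 0.47, with Ct 27.04, 26.83, 28.28 and 26.95 at day 4 and 34.73, 35.77, 34.12 and 33.46 at baseline, so its change too starts near the limit. miR-141 rose by 3.36 ± 0.44 and miR-200b by 2.51 ± 0.35, but under quantile normalization miR-141 had 0.16 and no call. The origin of these transcripts in muscle was not tested. Both neuronal miRNAs (miR-9 and miR-128a) fell, with a median of -0.98, and miR-9 alone turned to 0.04 in raw Ct. Both liver miRNAs (miR-192 and miR-194) fell under every scaling tried, with a median of -2.19, although neither is confined to liver.

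**Figure D4:**
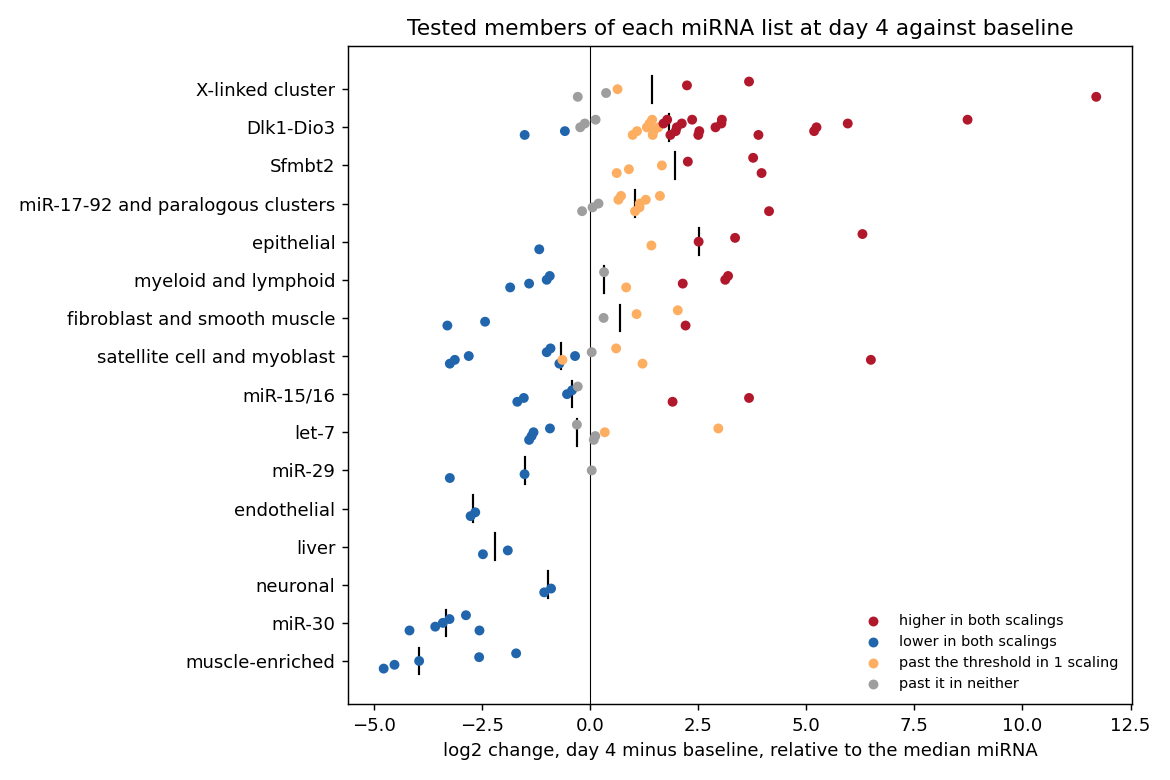
The log2 change (day 4 minus baseline, relative to the median miRNA) of the tested members of 16 lists, 1 point per miRNA, coloured by the call in both scalings, with a black bar at the list's median. The miR-30 and muscle-enriched lists lie wholly below 0, Sfmbt2 wholly above it, and the X-linked cluster reaches from -0.28 to 11.71.

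A shared seed went with a shared change in some families and not in others. miR-351 rose by 11.71 while miR-125b-5p, with the same seed, had Ct 18.14, 17.97, 18.40 and 18.12 at day 4 and 18.47, 18.34, 18.00 and 17.95 at baseline. Its scaled value was -0.91 ± 0.14, a decrease in both scalings, but 0.03 in raw Ct. miR-125a-5p had -0.37 ± 0.34 (adjusted p = 0.31). The span of this family was 12.6 on the log2 scale. The increase of miR-351 was thus not seen in the other measured miRNAs with its seed.

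The seed of miR-15, miR-16, miR-195 and miR-322 held members that went opposite ways. miR-15b rose by 1.91 ± 0.15, with Ct 19.17, 19.33, 19.39 and 18.96 at day 4 and 22.59, 22.27, 21.48 and 21.93 at baseline. miR-16 fell by 1.53 ± 0.17, with Ct 15.92, 15.81, 16.05 and 15.69 at day 4 and 15.09, 15.32, 15.22 and 15.50 at baseline, although under quantile normalization it had 0.03. miR-195 fell by 1.68 ± 0.11. miR-15a fell by 0.41 ± 0.15 (adjusted p = 0.014), a call that was lost without the third day 4 value (-0.31, adjusted p = 0.068) and that turned to 0.53 in raw Ct. miR-16 can come from either of a pair of loci, beside miR-15a on chromosome 14 and beside miR-15b on chromosome 3, and the assay does not separate them. Over the 7 members of the list with miR-503 and miR-497, 2 rose and 4 fell, beside 25.4% and 41.3% of all tested miRNAs. The list's median of -0.41 turned to 0.53 in raw Ct.

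In the let-7 family, whose members promote differentiation in many tissues, 4 of 9 fell and 0 rose. The share that fell was near the 41.3% of all tested miRNAs, of which 25.4% rose. The family's median of -0.30 turned to 0.04 with snoRNA202 and to 0.64 in raw Ct. let-7d fell by 1.41 ± 0.17, let-7g by 1.35 ± 0.19 and let-7f by 1.30 ± 0.12. miR-98, which has the let-7 seed, had Ct 27.30, 26.24, 27.38 and 25.24 at day 4 and 30.20, 29.20, 36.18 and 26.23 at baseline. Its value of 2.97 ± 1.35 passed in 1 scaling (adjusted p = 0.047, and 0.051 relative to U6), and without the third baseline value it was 1.02 (adjusted p = 0.29).

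Both arms were measured for 17 hairpins. The arms had the same call in 9 of them. In 3 both rose, in 3 both fell, and in miR-125a, miR-337 and miR-339 neither arm passed. In 0 did the arms move in opposite directions by the rule. Their log2 changes differed by a median of 0.59. The closest pairs included miR-142 and miR-331, whose arms fell by 1.55 ± 0.11 (miR-331-3p) and 1.48 ± 0.24 (miR-331-5p). The widest was miR-342, where miR-342-5p rose by 3.19 ± 0.39 while miR-342-3p had 0.84 ± 0.29, passed in 1 scaling and turned to -0.69 with snoRNA135. Of the other hairpins, miR-434 held miR-434-3p at -0.58 ± 0.18 and miR-434-5p at 1.45 ± 0.22, the sign of miR-434-5p turning to -0.08 with snoRNA135. Relative to the median miRNA alone, the arms of miR-434 passed in opposite directions. The difference between arms was not tested, and arms read by different assays near the detection limit differ in precision.

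Day 4 was also set against the neighbouring times, day 3 and day 7, which had 4 wells each. These comparisons share the day 4 wells with each other and with the comparison to baseline. Against day 3, 46 of 216 tested miRNAs were higher at day 4 in both scalings (21.3%) and 4 were lower (1.85%). Without the fourth day 4 value or the first day 3 value, 1 was lower. Against day 7, 2 of 217 were higher at day 4 (0.922%) and 35 lower (16.1%), and the 2 became 1 without the first or the third day 4 value or the first day 7 value. Relative to the median miRNA alone, 56 were higher (25.9%) and 61 lower (28.2%) against day 3, and 56 were higher (25.8%) and 52 lower (24%) against day 7, so the split between directions rested largely on the scaling.

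Relative to the median miRNA 5 miRNAs stood higher at day 4 than on both neighbouring days. They come from only a pair of loci, so neighbours within a locus are not separate observations. These were miR-351, miR-503 and miR-322 of the first X-linked cluster and miR-188-5p and miR-532-3p of the second. For miR-351 and miR-188-5p this held in both scalings. miR-351 was 4.38 ± 0.52 higher than on day 3 and 3.04 ± 0.52 higher than on day 7 (adjusted p = 5.01e-07 and 5.05e-05). Its Ct at day 4 lay between 21.01 and 21.56, while it was 25.86, 25.94, 25.79 and 26.39 on day 3 and 23.96, 24.52, 25.40 and 22.80 on day 7.

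miR-188-5p was 1.09 ± 0.24 higher than on day 3 and 1.86 ± 0.24 higher than on day 7, with day 4 wells from 20.64 to 20.93 and no other well of those days under 21.51. miR-503 was 1.55 ± 0.18 higher than on day 3 and 1.32 ± 0.18 higher than on day 7, but 0.73 ± 0.38 relative to U6 against day 7 (adjusted p = 0.18). miR-322 was 1.03 ± 0.18 higher than on day 3 and 0.97 ± 0.18 higher than on day 7, with 0.39 ± 0.49 relative to U6 against day 7. So miR-322, which was close to baseline at day 4, was below it by 1.31 on day 3 and by 1.25 on day 7 in this scaling. miR-532-3p was 0.87 ± 0.13 higher than on day 3 and 0.50 ± 0.13 higher than on day 7, the day 7 value turning to -0.08 relative to U6.

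All 6 members of the first X-linked cluster were higher at day 4 than on day 3 in both scalings, beside 21.3% of all tested miRNAs. Against day 7, 1 was higher (miR-351) and 1 lower (miR-542-5p, at -0.98 ± 0.20). Of the 30 Dlk1-Dio3 miRNAs, 23 were higher than on day 3 and 23 lower than on day 7, against 21.3% and 16.1% of all. The 2 sets differ: 19 passed on both sides in both scalings, and the other 11 did not. miR-433 was 3.78 ± 0.31 above day 3 and -1.26 ± 0.31 relative to day 7, and miR-431 was 4.21 ± 0.55 above day 3 and -2.03 ± 0.55 relative to day 7.

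The fibre miRNAs were higher at day 4 than on day 3 as well. miR-1 was 1.43 ± 0.47 higher (adjusted p = 0.015, and 0.052 without the second day 4 value) and miR-133a 1.35 ± 0.43 higher (adjusted p = 0.012, and 0.054 without that value). miR-133b and miR-486 were 3.23 ± 0.29 and 3.52 ± 0.57 higher, and miR-499, not detected on day 3, was at least 19.7-fold higher at day 4. Over all tested miRNAs 21.3% were higher than on day 3 and 16.1% lower than on day 7. The 4 fibre miRNAs tested against day 3 were all higher. Against day 7, 3 of 5 were lower at day 4, among them miR-1 at -1.48 ± 0.47. miR-489 had the same course, 2.29 ± 0.37 above day 3 and -1.67 ± 0.37 relative to day 7.

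miR-223 moved the other way, -1.59 ± 0.12 relative to day 3 and 1.39 ± 0.12 relative to day 7, the day 7 call lost relative to U6 (adjusted p = 0.18). None of the 6 miR-30 members passed against day 3 or day 7 in both scalings. Lower at day 4 than on both neighbouring days relative to the median miRNA, but in no case in both scalings, were miR-126-3p (-0.60 ± 0.13 and -0.41 ± 0.13), miR-192 (-0.46 ± 0.14 and -0.36 ± 0.14) and miR-574-3p (-0.35 ± 0.14 and -0.52 ± 0.14).

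**Figure D5:**
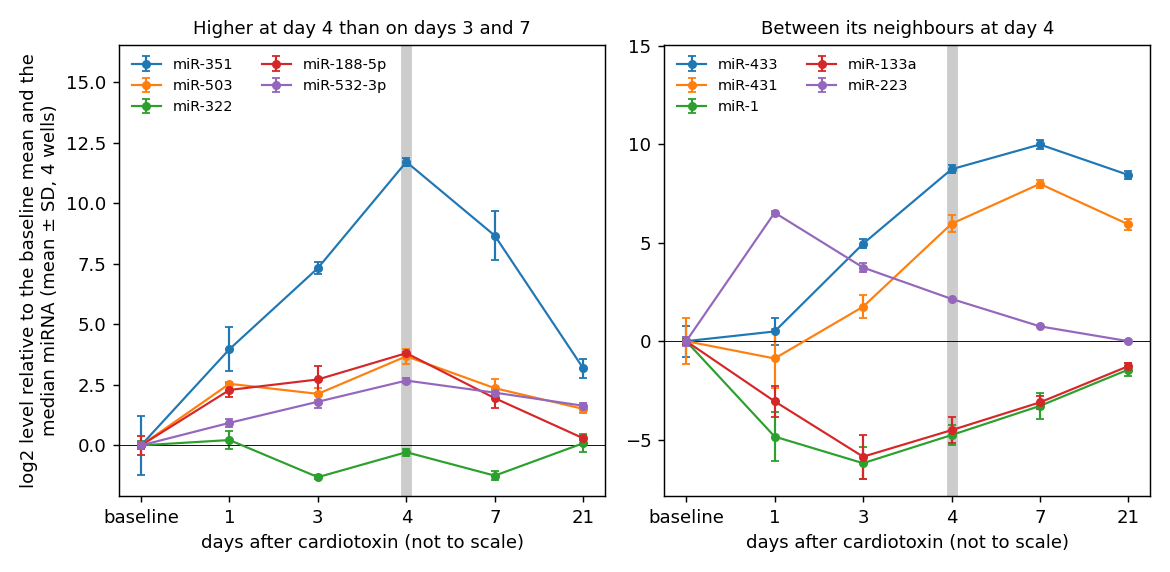
The log2 level of 10 miRNAs relative to the baseline mean and the median miRNA (mean and SD of 4 wells), from baseline to day 21 with day 4 shaded and days evenly spaced. The 5 X-linked miRNAs on the left stand higher at day 4 than on days 3 and 7, whereas on the right miR-433, miR-431, miR-1 and miR-133a lie above their day 3 and below their day 7 level, and miR-223 lies below its day 3 and above its day 7 level.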

How the data were processed

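The deposited files gave raw Ct values from TaqMan RT-PCR (40 cycles, per the labels' protocols), in the exported form and with no normalization; 222 assays with 4 values per group, of which 217 are miRNAs and 5 control RNAs. All 5 files held the same baseline values, which entered the fit once. The Ct threshold and the RNA input per reaction are not stated in the labels. The number of wells limits the precision. Depth has no counterpart in these data.

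Detection meant 3 or 4 wells with Ct under 35, and a miRNA was tested where detected in both groups. Wells at 40 were left out of the fit (1 day 4 well, of miR-99b, 1 baseline well, of miR-298, 6 day 1 wells and 3 day 21 wells). Minus Ct was scaled to each well's median change of 205 miRNAs from their baseline mean (main) and, separately, to U6. All 6 groups of the series entered the same linear model for each miRNA (lmFit and eBayes of limma 3.58.1, R 4.3.3), two-sided, with Benjamini-Hochberg adjustment over all miRNAs tested and errors from the fit. The model was tested on simulated data. For miRNAs detected in 1 group only, wells of the other group above the limit were set to 35, and the fold is a lower bound. Pairs of day 4 wells differed by a median of 0.21 to 0.43 cycles and pairs of baseline wells by 0.18 to 0.57. Within either group no well was a copy of another. This cannot tell repeats of the same RNA from separate mice, and wells of the other days were not compared.

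The miRNAs, lists and rules were chosen with earlier results of these data known. Named were miR-351, miR-503, miR-433 and miR-30c, the 12 largest calls each way, miRNAs detected in 1 group, the muscle-enriched, X-linked and miR-30 lists whole, the 4 most changed members of every other list, their seed families and families with opposite calls, the miRNAs higher or lower than on both neighbouring days, and the arms of hairpins with both measured. The other lists were Dlk1-Dio3, Sfmbt2, miR-17-92 and paralogous clusters, epithelial, myeloid and lymphoid, red cell, fibroblast and smooth muscle, satellite cell and myoblast, endothelial, neuronal, liver, miR-15/16, let-7 and miR-29. Positions and sequences come from RefSeq (GRCm38.p6), through 170 matched names. Alternatives changed the normalizer, the Ct limit, the treatment of undetermined wells, the groups in the fit and the wells left out.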

Additional observations from a re-analysis of the deposited data

Results flagged for a closer look

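In 9 of the 174 sets of 4 wells behind the miRNAs with printed values, 1 well stood apart from the other 3 in its scaled value, with a gap to the nearest well, as a share of the whole range, above Dixon's critical value for 4 samples. Chance flags about 1 in 20 such groups, and 5.17% of them were flagged. At day 4 these were the second well of miR-125b-5p (0.912 of the range), the fourth of miR-133b (0.944) and the fourth of let-7d (0.861). At baseline the fourth well of miR-34c (0.964) had Ct 28.54 against 30.32 to 30.69 in the other wells, and the fourth of miR-31 (0.849) had 25.21 against 26.50 to 27.05. In both cases the lone well showed more RNA, and the day 4 wells of these miRNAs lay well below it in Ct. The second baseline well of miR-199a-5p (0.842) had Ct 31.81 against 28.94 to 29.69. The other baseline sets were miR-128a (the first well, 0.85), miR-194 (the second, 0.907) and miR-337-3p (the third, 0.863).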

How the results depend on the processing

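No paired analysis was possible because each time point is a single entry in the labels and its 4 values carry no animal numbers that link them across groups. Against baseline the counts of miRNAs higher and lower were 92 and 88 relative to the median miRNA (51.1% of calls higher). The counts higher became 54 with U6 (37% of calls higher) and 42 with snoRNA135 (24.4%), and raw Ct gave 122 higher and 62 lower (66.3%). Under the other normalizers, Ct limits, fits and omitted wells both counts stayed within 1.5 times these values, between 85 and 96 higher for the Ct limits and between 88 and 92 higher with 1 well left out. The cause of the differences between normalizers was not tested beyond the unequal shifts of the control RNAs. Under both scalings together, leaving out 1 well gave 46 to 57 higher and 81 to 90 lower. A Ct limit of 32 left 206 miRNAs to test and took out miR-351 and miR-433, whose baseline wells lie above it.

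Against day 3 (56 higher, 61 lower, 47.9% of calls higher) the miRNAs lower at day 4 numbered 4 with U6 (92% of calls higher), 19 with snoRNA135 (75.9%), 8 with U87 (87.7%), 26 with the mean of snoRNA135, snoRNA202 and U87 (70.5%), 21 in raw Ct (75%) and 144 with Y1, where 19 were higher (11.7%). Against day 7 (56 higher, 52 lower, 51.9%) the miRNAs higher at day 4 numbered 2 with U6 (5%), 22 with snoRNA135 (22.2%), 32 with snoRNA202 beside 82 lower (28.1%), 17 with U87 (30.9%), 4 with Y1 beside 108 lower (3.57%), 32 with the mean of 3 controls (29.9%) and 31 in raw Ct (31.3%). In both scalings together, leaving out 1 well gave 38 to 53 higher and 1 to 4 lower against day 3, and 1 to 3 higher and 29 to 52 lower against day 7.

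The sign of these miRNAs turned. With U6, miR-542-5p had -0.035. With snoRNA135, miR-17 had -0.38, miR-20a -0.24, miR-342-3p -0.69, miR-434-5p -0.0775 and miR-542-5p -0.89, and the list medians were -0.0875 (X-linked cluster), -1.20 (myeloid and lymphoid), -0.83 (fibroblast and smooth muscle) and -0.48 (miR-17-92). The myeloid and lymphoid median was -0.35 with U6 and -0.0733 with the mean of 3 controls, and that of let-7 was 0.0375 with snoRNA202. In raw Ct, where the median miRNA stands at 1.00, miR-125b-5p had 0.0325, miR-15a 0.53, miR-434-3p 0.36, miR-451 0.0275 and miR-9 0.045, and the medians were 0.27 (satellite cell and myoblast), 0.64 (let-7) and 0.53 (miR-15/16). Quantile normalization gave miR-133b 0.36, miR-16 0.034, miR-29a 0.25 and miR-542-5p -0.78. Against day 3, miR-574-3p had 0.10 with U6 and miR-532-3p -0.15 with Y1, and against day 7 miR-532-3p had -0.0825 with U6 and -0.31 with Y1.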

Other observations

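The day 7 wells, used here only as a neighbouring time, gave nearly the same Ct for snoRNA202, with 13.98 ± 0.0058 (SD, n = 4), whereas the day 4 wells had 13.91 ± 0.11. Whether the 4 day 7 values come from 4 separate mice, as taken here, was not tested. The spread of the 4 day 4 wells differed between miRNAs. Their Ct had an SD of 1.07 in miR-29c, while the SD was 0.71 in miR-133a, 0.65 in miR-193b and 0.53 in miR-1. It was smaller in miR-503 (0.37), miR-188-5p (0.14) and miR-223 (0.14).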
